A study of Rattus norvegicus with 24 samples.

Results

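The polyamine genes examined here are 8 genes taken by symbol from the deposited gene table: Odc1, Azin1, Oaz1, Amd1, Srm, Sms, Sat1 and Smox. All 8 were among its 10851 genes, and all 8 were tested in the 24 rats. The animals were male Wistar rats in 4 groups of 6. Rats of the control groups had a saline injection and either stayed sedentary (Sed) or trained on a treadmill (Ex), and rats with cardiac cachexia (CC) had monocrotaline and were likewise sedentary (CC-Sed) or trained (CC-Ex). Monocrotaline is a plant toxin that raises pressure in the lung circulation and overloads the right ventricle. Each library came from the medial gastrocnemius, a mostly fast-twitch hind limb muscle, of a different animal, and the age of the rats is not given in the sources used here. Rats that died before the end of the experiment or had no enlarged right ventricle were not kept in the CC groups, so these groups describe survivors with heart disease.

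Library totals ran from 37816239 to 50350554 counts. The summed level of 10 fast fibre marker genes lay between 116300 and 272600 CPM (counts scaled to the size of the library, after TMM normalization), so fast muscle genes were abundant in every rat. Myh1 and Mylpf, which also mark fast fibres, were not analysed here. Blood cell markers (Hbb, Hba-a1 and Hba-a3) and collagen genes differed between the groups, and their values are given beside the results they touch. The 10 highest genes of a library took between 24.8% and 34.4% of its counts. The 3 lowest shares were in CC-Sed rat 1 (24.8%), CC-Sed rat 6 (26%) and CC-Ex rat 5 (26.3%), and results that rest on these libraries are given with and without them.

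Polyamines (putrescine, spermidine and spermine) are small, positively charged molecules that bind nucleic acids and are needed for protein synthesis and growth. Ornithine decarboxylase, encoded by Odc1, makes putrescine. Antizyme (Oaz1) binds this enzyme and sends it to the proteasome, and the antizyme inhibitor Azin1 binds antizyme and so spares the enzyme. Amd1 makes the aminopropyl donor that Srm uses to build spermidine and Sms uses to build spermine. In the other direction, Sat1 acetylates spermidine and spermine for export or breakdown, and Smox oxidises spermine back to spermidine with release of hydrogen peroxide. In skeletal muscle, Smox has been studied for its part in keeping fibre size.

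Taken over both training states, Amd1 was lower and Sat1 and Smox were higher in CC muscle. The Sat1 call did not hold without the 3 libraries of low share, as given with that gene below. Over the 12 CC and the 12 saline rats, Amd1 fell by 0.48 on the log2 scale, Smox rose by 0.62 and Sat1 rose by 1.26. Srm, Azin1, Odc1, Sms and Oaz1 did not pass the test. With edgeR's quasi-likelihood test and a Benjamini-Hochberg adjusted p under 0.05 over all genes, 3 of the 8 genes thus passed. Beside them, 27.8% of the whole table passed, so the count was near that of the table. By direction, 2 of the 8 were higher, beside 17.2% of the table, and 1 was lower, beside 10.6%, and 42.4% of the table had an unadjusted p under 0.05, as did 5 of the 8. A differentially expressed gene (DEG) also had to have a Log2FC of 1 or more in either direction, and 1 of the 8, Sat1, met this rule, beside 2.88% of the table. The median Log2FC of the 8 genes was 0.02, and that of all genes was 0.01. In bulk muscle, fewer cells of a type and less RNA per cell cannot be told apart. The plot of CPM by rat shows all values.

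**Figure D1:**
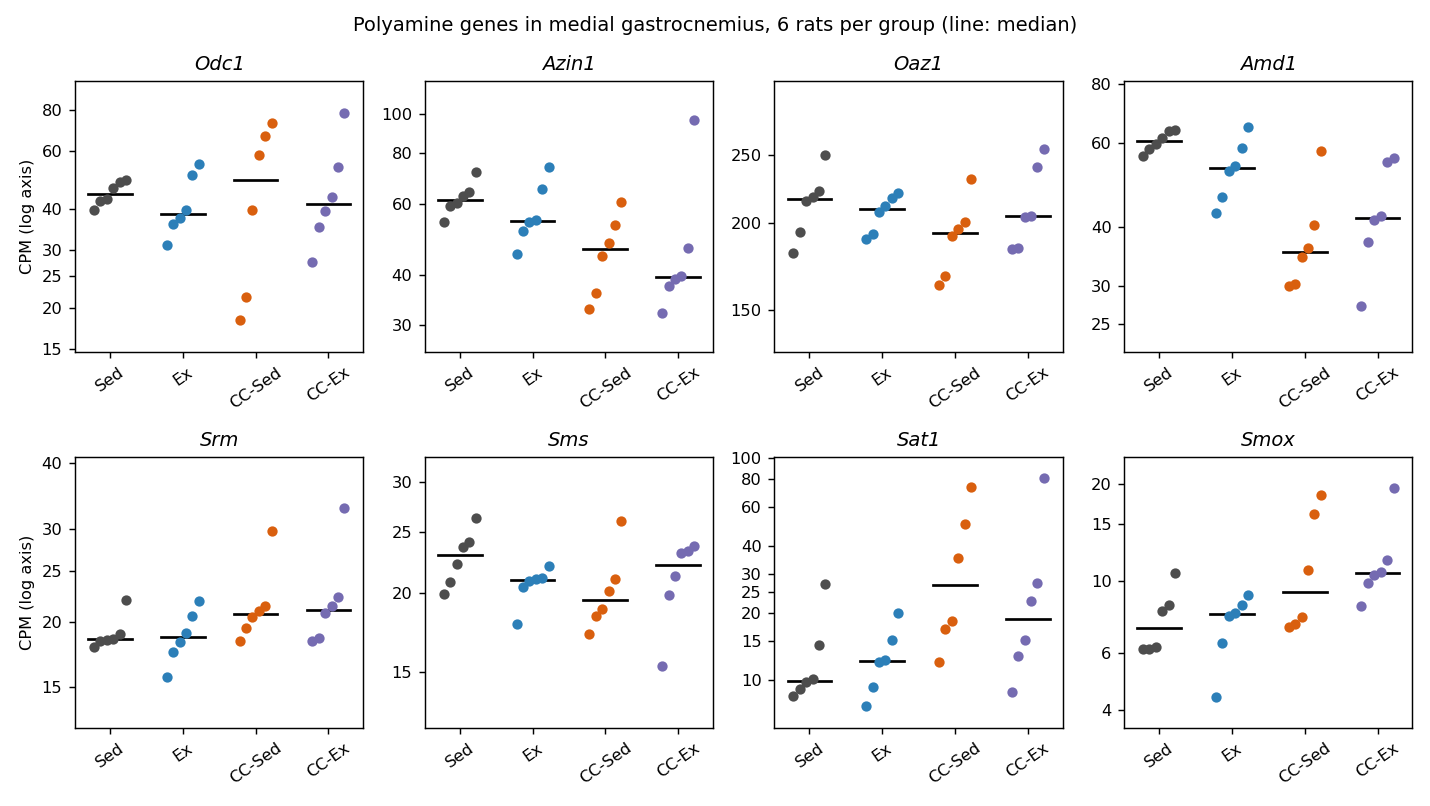
CPM of the 8 polyamine genes on log axes, with 1 point per rat (6 per group) and a line at each group's median. Amd1 lies lower in the CC groups (CC-Sed median 35.4 against 60.7 in Sed), Sat1 and Smox lie higher, and Odc1 fans out in CC-Sed from 18.4 to 73.2.

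Taken within each training state, fewer genes passed. In Sed vs. CC-Sed, 1 of the 8 (Amd1, lower) had an adjusted p under 0.05, beside 6.46% of all genes, and none was a DEG, beside 1.87%. At an unadjusted p under 0.05, 4 of the 8 passed (Smox and Sat1 higher, Amd1 and Azin1 lower), beside 28.4% of all genes. In Ex vs. CC-Ex, none passed, beside 0.995% of all genes, none was a DEG, beside 0.525%, and 2 of the 8 (Smox and Sat1) had an unadjusted p under 0.05, beside 22.6%. In Ex vs. CC-Ex, DESeq2 called 0 of the 8, beside 685 of 10630 genes. There limma-voom called 2 (Amd1 and Azin1, both lower), beside 1043 of 10851 genes. Both comparisons enter the 12 against 12 rats, so the pooled effect is not independent of them. The 95% confidence intervals of the CC effects are drawn in the plot of Log2FC by comparison.

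**Figure D2:**
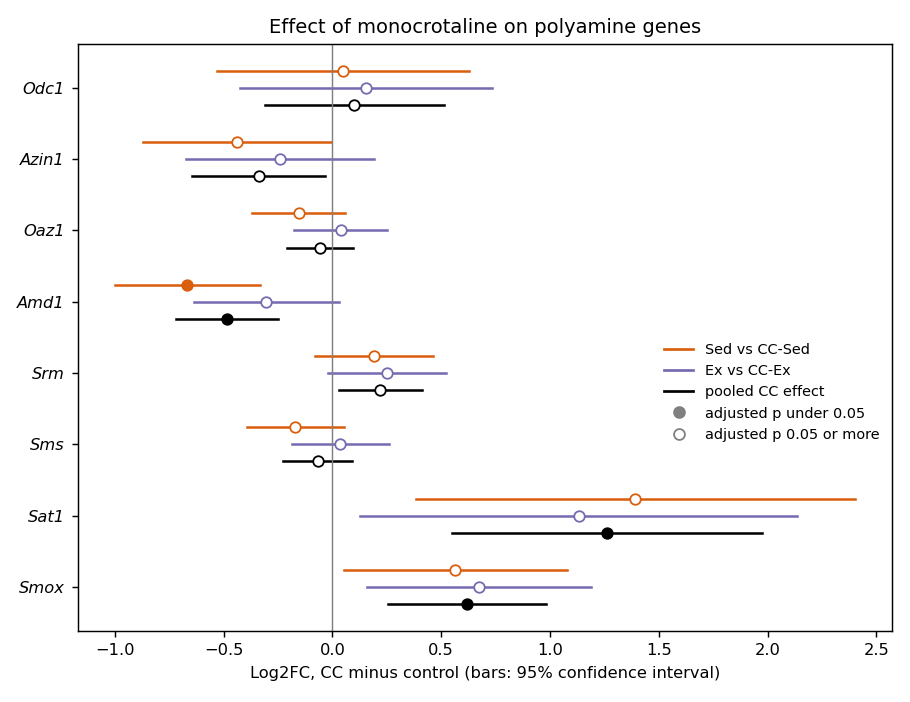
Log2FC of the 8 genes, CC minus control, in Sed vs. CC-Sed, in Ex vs. CC-Ex and pooled over 12 against 12 rats, with 95% confidence intervals. Filled points have an adjusted p under 0.05: Amd1 in Sed vs. CC-Sed (-0.67), and Amd1 (-0.48), Sat1 (1.26) and Smox (0.62) in the pooled comparison.

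The sequences just upstream of 4 of these genes are shown because they are the 3 genes that passed the test and Srm, a gene known to be induced by Myc. Each is the 250 bases before the annotated start, read 5′ to 3′ on the gene's strand from RefSeq windows of the rat build GRCr8. The counts themselves were made on the transcripts of another build, mRatBN7.2. Capitals mark a TATA box (TATAAA) in Amd1 and an E-box (CACGTG), the letters bound by Myc and its partners, in Srm.
Amd1: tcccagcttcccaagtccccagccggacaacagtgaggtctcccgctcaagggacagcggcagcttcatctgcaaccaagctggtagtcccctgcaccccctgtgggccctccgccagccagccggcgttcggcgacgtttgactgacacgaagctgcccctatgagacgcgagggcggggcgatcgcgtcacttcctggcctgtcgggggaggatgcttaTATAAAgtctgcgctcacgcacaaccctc
Srm: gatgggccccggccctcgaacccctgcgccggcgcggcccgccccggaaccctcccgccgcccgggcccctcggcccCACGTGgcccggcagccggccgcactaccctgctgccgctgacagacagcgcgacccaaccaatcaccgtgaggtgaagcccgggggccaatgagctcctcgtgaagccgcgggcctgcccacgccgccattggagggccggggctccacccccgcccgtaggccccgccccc
Sat1: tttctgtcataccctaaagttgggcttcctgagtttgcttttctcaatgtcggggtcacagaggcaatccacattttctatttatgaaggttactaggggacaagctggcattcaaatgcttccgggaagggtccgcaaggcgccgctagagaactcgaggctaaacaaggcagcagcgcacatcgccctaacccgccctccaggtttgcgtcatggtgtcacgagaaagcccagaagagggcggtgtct
Smox: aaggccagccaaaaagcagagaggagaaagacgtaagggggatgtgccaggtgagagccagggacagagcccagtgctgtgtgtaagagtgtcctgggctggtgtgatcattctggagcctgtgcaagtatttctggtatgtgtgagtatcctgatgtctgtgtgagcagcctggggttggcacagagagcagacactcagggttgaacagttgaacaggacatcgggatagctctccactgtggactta

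The windows lie at chr20:45265983-45266232 (minus strand) for Amd1, chr5:164308752-164309001 (plus strand) for Srm, chrX:44007839-44008088 (plus strand) for Sat1 and chr3:139204351-139204600 (plus strand) for Smox. Windows were given for 7 of the 8 genes, and Azin1 was not searched. Both strands were searched for CACGTG (5.59% of the 33469 windows given), GTAAACA bound by FoxO factors (3.21%), AGAACA bound by the glucocorticoid receptor (17.5%), TGACTCA bound by AP-1 (4.05%) and TATAAA (12.9%). The TATA box of Amd1 lies 29 bases before its start. The E-box of Srm lies 173 bases before its start. Oaz1 held both an E-box, 234 bases before its start, and a TATA box, 28 bases before it. The windows of Sat1, Smox, Odc1 and Sms held none of these letters. The Amd1, Odc1, Smox and Sms windows begin inside the span of another annotated transcript. GC content was 78.4% in the Srm window, 64% in that of Amd1, 53.2% in that of Smox and 52.8% in that of Sat1. A match is a run of letters and was not tested as a binding site.

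Odc1 (ENSRNOG00000005424) encodes the enzyme that starts the pathway. Its CPM was 39.9, 44.6 and 49.1 (lowest, median and highest) in Sed, 31.1, 38.7 and 54.9 in Ex, 18.4, 49.2 and 73.2 in CC-Sed, and 27.7, 41.5 and 78.6 in CC-Ex. In CC-Sed, 3 rats lay above every Sed rat (58.5, 66.6 and 73.2 CPM) and the other 3 lay below every Sed rat (18.4, 21.6 and 39.8 CPM). The last of these, CC-Sed rat 5, was at the edge of the Sed range, at 39.84 CPM against 39.89 in Sed rat 3. The group means hardly differed, with a Log2FC of 0.05 (95% CI -0.53 to 0.63, adjusted p = 0.924) in Sed vs. CC-Sed and 0.15 (-0.43 to 0.73, adjusted p = 0.751) in Ex vs. CC-Ex. The sign of the Sed vs. CC-Sed value turned under several alternatives, among them limma-voom with sample weights (-0.32).

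Odc1 varied widely among the CC-Sed rats. The SD of its log2 CPM was 0.118 in Sed and 0.854 in CC-Sed, a ratio of 7.21. The median ratio of all genes was 1.54, and 34 genes (0.313% of the table) had a ratio at least as large. Amd1 followed among the 8 genes with a ratio of 4.81, which 2.01% of the table reached, and the other 6 lay between 1.12 (Oaz1) and 2.45 (Azin1). In the exercised groups the ratio was 1.68 for Odc1 and 1.74 for Amd1, both close to the median of 1.77 over all genes. Spread was described and not tested, since the spread of 6 rats is itself known only roughly.

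Azin1 (ENSRNOG00000005333) encodes the antizyme inhibitor. Its CPM was 54.1, 61.4 and 72.0 (lowest, median and highest) in Sed and 32.8, 46.2 and 60.5 in CC-Sed, and 5 of the 6 CC-Sed rats lay below every Sed rat. It was 45.1, 54.4 and 74.2 in Ex and 32.1, 39.4 and 96.6 in CC-Ex, where 4 of 6 rats lay below every Ex rat and rat 5 lay above them all. The Log2FC was -0.44 (SE 0.209, adjusted p = 0.172) in Sed vs. CC-Sed, -0.24 (SE 0.209, adjusted p = 0.479) in Ex vs. CC-Ex and -0.34 (SE 0.148, adjusted p = 0.0843) in the pooled comparison. The last value depended on the setting and on CC-Ex rat 5. Without that rat the pooled Log2FC was -0.52 with an adjusted p of 0.0014. Without all 3 libraries of low share it was -0.59 (adjusted p = 0.00123), and limma-voom, which weights samples, gave -0.54 (adjusted p = 0.000283). Over the 11 alternatives other than leaving out single rats, 6 gave an adjusted p under 0.05 and 5 did not, and the adjusted p ran from 0.000283 to 0.156.

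Azin1 moved against blood, vessel and slow fibre markers within the groups. Its deviations from the group means had a Pearson correlation of -0.72 with the erythroid markers (Hbb, Hba-a1 and Hba-a3) and of -0.72 with the endothelial markers over the 24 rats. With 7 slow fibre genes it was -0.53. The slow fibre sum was 782 to 4344 CPM in Sed, 1013 to 11310 in Ex, 1187 to 12570 in CC-Sed and 690 to 9808 in CC-Ex. The erythroid sum was 49.9 to 130 CPM in Sed, 92.2 to 210 in Ex, 50.5 to 409 in CC-Sed and 33.8 to 960 in CC-Ex, and 2 of its 3 genes were higher in CC. Hba-a2 and Alas2 were not analysed here. The endothelial sum of 5 genes was 148 to 241 CPM in Sed, 157 to 219 in Ex, 131 to 217 in CC-Sed and 131 to 258 in CC-Ex, with Kdr higher and Tie1 lower in CC. These correlations were not recomputed without CC-Ex rat 5, which had the highest Azin1 value of the 24 rats. The part of these cells in the Azin1 values was not tested.

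Oaz1 (ENSRNOG00000019459) encodes antizyme itself, which Azin1 opposes. Its CPM was 181, 217 and 251 (lowest, median and highest) in Sed, 190, 209 and 221 in Ex, 163, 194 and 231 in CC-Sed, and 183, 204 and 256 in CC-Ex. The groups overlapped throughout. The Log2FC was -0.16 (95% CI -0.37 to 0.06, adjusted p = 0.324) in Sed vs. CC-Sed and 0.04 (-0.18 to 0.25, adjusted p = 0.833) in Ex vs. CC-Ex.

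Amd1 (ENSRNOG00000000585) had the lowest adjusted p of the 8 genes in the pooled comparison. Its CPM was 56.4, 60.7 and 64.0 (lowest, median and highest) in Sed and 30.0, 35.4 and 57.8 in CC-Sed. Of the 6 CC-Sed rats, 5 lay below every Sed rat, and CC-Sed rat 4 alone fell within the Sed range. In Ex it was 42.7, 53.2 and 65.0, and in CC-Ex 27.2, 41.7 and 55.9, with 4 of 6 rats below every Ex rat. Against the median of their own controls, all 6 CC-Sed rats and 4 of the 6 CC-Ex rats lay lower. All 12 lay below the median of the 12 saline rats, and 9 of them below the lowest. The Log2FC was -0.67 (SE 0.162, adjusted p = 0.0210) in Sed vs. CC-Sed, -0.30 (SE 0.161, adjusted p = 0.255) in Ex vs. CC-Ex and -0.48 (SE 0.114, adjusted p = 0.00526) pooled, or 0.715 of the saline level. The pooled call held when any single rat was left out (-0.56 to -0.43) and without the 3 libraries of low share (adjusted p = 0.0142). With the share of the 10 highest genes as a covariate the pooled value was -0.39 (adjusted p = 0.0558), and 746 of all genes passed in place of 3017. The sedentary call was lost in 3 of 12 alternatives: with the fast fibre score as a covariate (-0.53, adjusted p = 0.182), with the share (-0.57, adjusted p = 0.0820) and without the 3 libraries (-0.58, adjusted p = 0.0798). Of the fits that left out a rat, it was lost without Sed rat 2 (adjusted p = 0.0519), CC-Sed rat 1 (0.0566) or CC-Sed rat 6 (0.0653).

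Amd1 moved against other cell markers within the groups. Its deviations from the group means were set against those of the mean log2 CPM of each marker list. Over the 24 rats the Pearson correlation was -0.67 with the macrophage markers, -0.65 with the satellite cell markers and -0.57 with the fibroblast markers. Macrophage marker sums overlapped between the groups (26.6 to 193 CPM in Sed, 51.7 to 184 in CC-Sed, 45.2 to 243 in Ex and 40.4 to 283 in CC-Ex), and none of the 9 macrophage genes passed in the pooled comparison. Of the 6 fibroblast genes, 3 (Col1a1, Col1a2 and Col3a1) were lower in CC, and the fibroblast sum was 399 to 2836 CPM in Sed against 481 to 1494 in CC-Sed, and 830 to 4962 in Ex against 151 to 1571 in CC-Ex. Of the satellite cell markers, 2 were present (Myf5 and Chrdl2), and Myf5 was higher in CC in the pooled comparison. Their sums were 4.16 to 7.02 CPM in Sed and 5.46 to 8.25 in CC-Sed, and 4.92 to 7.54 in Ex and 3.87 to 7.84 in CC-Ex. The part of these cells in the Amd1 values was not tested.

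Srm (ENSRNOG00000011078) encodes spermidine synthase. Its CPM was 17.9, 18.5 and 22.0 (lowest, median and highest) in Sed, 15.7, 18.7 and 21.9 in Ex, 18.4, 20.7 and 29.8 in CC-Sed, and 18.4, 21.1 and 32.9 in CC-Ex. The groups overlapped, with the highest CC values in CC-Sed rat 6 and CC-Ex rat 5. The pooled Log2FC was 0.22 (SE 0.0927, adjusted p = 0.0748), and without the 3 libraries of low share it was 0.09 (adjusted p = 0.365). Sms (ENSRNOG00000007688), spermine synthase, had CPM of 19.9, 22.9 and 26.3 in Sed, 17.9, 21.0 and 22.1 in Ex, 17.3, 19.5 and 26.0 in CC-Sed, and 15.3, 22.2 and 23.8 in CC-Ex. These ranges lay over each other, and the pooled Log2FC was -0.07 (95% CI -0.23 to 0.09, adjusted p = 0.513).

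Sat1 (ENSRNOG00000003809), the acetylase that starts polyamine breakdown, had the largest Log2FC of the 8 genes. Its CPM was 8.47, 9.94 and 27.0 (lowest, median and highest) in Sed, 7.63, 12.2 and 20.0 in Ex, 12.1, 26.9 and 74.0 in CC-Sed, and 8.88, 18.9 and 80.9 in CC-Ex. All 6 CC-Sed rats and 5 of the 6 CC-Ex rats lay above the median of their own controls. Of the 12 CC rats, 11 lay above the saline median and 5 above the highest saline rat, and the groups overlapped. The Log2FC was 1.39 (SE 0.489, adjusted p = 0.0776) in Sed vs. CC-Sed, 1.13 (SE 0.486, adjusted p = 0.176) in Ex vs. CC-Ex and 1.26 (SE 0.345, adjusted p = 0.0116) pooled, or 2.40 times the saline level.

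The 3 highest Sat1 values stood in the 3 libraries with the lowest share of counts in their 10 highest genes: CC-Ex rat 5 (80.9 CPM), CC-Sed rat 6 (74.0) and CC-Sed rat 1 (50.2). The highest saline value (27.0 CPM, Sed rat 5) was in the saline library with the lowest share (29%). Over the 24 rats, the deviations of Sat1 from its group means had a Pearson correlation of -0.77 with those of this share (Spearman -0.70, and Pearson -0.72 without CC-Sed rat 1 and CC-Ex rat 5). Among the 12 saline rats alone, the Pearson value of -0.62 became -0.19 without Sed rats 4 and 5, so there it rested on those animals. Without the 3 libraries the pooled Log2FC of Sat1 was 0.54 (adjusted p = 0.142). With the share as a covariate it was 0.37 (adjusted p = 0.368), and with the fast fibre score as a covariate 0.72 (adjusted p = 0.145). Over all genes, the 3017 pooled calls fell to 1660, 746 and 1041 in these 3 settings. Leaving out CC-Ex rat 5 by itself gave 0.89 pooled, still with an adjusted p under 0.05, and took Ex vs. CC-Ex from 1.13 to 0.43. The same deviations of Sat1 had a Pearson correlation of -0.66 with the erythroid markers, -0.65 with the endothelial markers and -0.54 with the fast fibre markers, whose sums by group are given with Azin1 and Smox. These marker correlations were not recomputed without CC-Ex rat 5 either. The part of these cells in the Sat1 values was not tested.

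**Figure D3:**
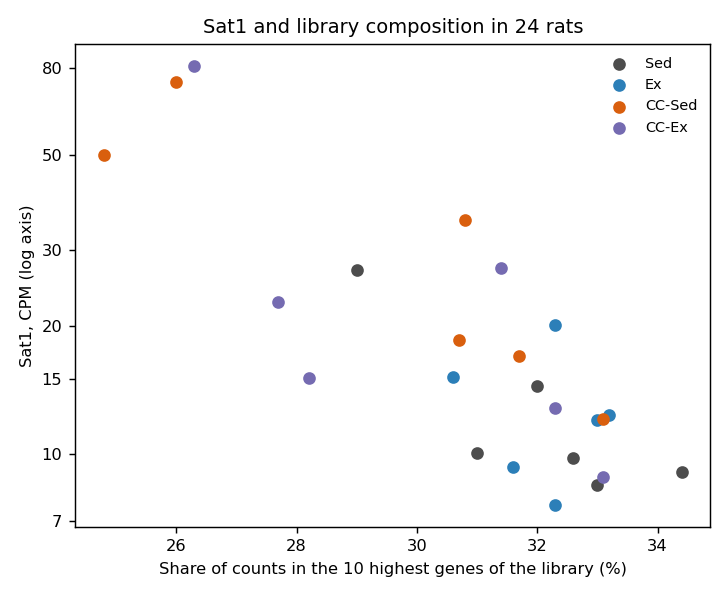
Sat1 CPM (log axis) against the percentage of counts held by the 10 highest genes of each library, with 1 point per rat. The 3 highest Sat1 values (50.2, 74.0 and 80.9 CPM) lie at the 3 lowest shares (24.8%, 26% and 26.3%), and all 3 are CC rats.

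Smox (ENSRNOG00000021255), spermine oxidase, was higher in the pooled comparison, and its values in both training states were close to each other. Its CPM was 6.19, 7.19 and 10.6 (lowest, median and highest) in Sed, 4.40, 7.91 and 9.04 in Ex, 7.23, 9.29 and 18.6 in CC-Sed, and 8.37, 10.6 and 19.5 in CC-Ex. All 6 CC rats of each training state lay above the median of their own controls, and 5 of 6 CC-Ex rats and 3 of 6 CC-Sed rats lay above the highest control. Against all 12 saline rats, 9 of the 12 CC rats lay above the median and 3 below it, and 6 lay above the highest. The Log2FC was 0.57 (SE 0.248, adjusted p = 0.142) in Sed vs. CC-Sed, 0.67 (SE 0.248, adjusted p = 0.128) in Ex vs. CC-Ex and 0.62 (SE 0.175, adjusted p = 0.0140) pooled. Without the 3 libraries of low share the pooled value was 0.74 (adjusted p = 0.0105), and with any single rat left out it lay between 0.52 and 0.68 and still passed. With the library number as a covariate it was 0.58 with an adjusted p of 0.0528. The numbers were not balanced between the groups: 1 to 6 were all CC libraries, and the lowest saline number was 7. The number and the CC effect thus cannot be fully told apart.

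Smox followed the fast fibre genes from rat to rat. Its deviations from the group means correlated with the fast fibre score at 0.73, those of Oaz1 at 0.65 and those of Odc1 at -0.65. The fast fibre sum was 168100 to 247200 CPM in Sed, 116300 to 244700 in CC-Sed, 139500 to 249300 in Ex and 166200 to 272600 in CC-Ex, and 0 of its 10 genes passed in the pooled comparison by edgeR (2 had an unadjusted p under 0.05). With this score as a covariate the Smox effect was 0.95 (adjusted p = 0.0267) in Sed vs. CC-Sed and 0.82 (adjusted p = 0.0405) in Ex vs. CC-Ex.

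Odc1 and Smox ran against each other. Within groups their Pearson correlation was -0.80 over the 24 rats (Spearman -0.84), -0.71 among the 12 saline rats and -0.86 among the 12 CC rats. Leaving out the 2 rats farthest from the median of Odc1 gave -0.72, -0.63 and -0.71. Of the 10850 other genes, Smox held rank 3 within groups among those most opposed to Odc1. By log2 CPM as it stands over the 24 rats, it held rank 19 (-0.64). The CC-Sed rats with the lowest Odc1 (rats 3 and 2, 18.4 and 21.6 CPM) had the highest Smox of that group (18.6 and 16.2 CPM), and the 3 with the highest Odc1 had the lowest Smox, 7.23 to 7.75 CPM. The points share library and depth, so these values are a description.

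**Figure D4:**
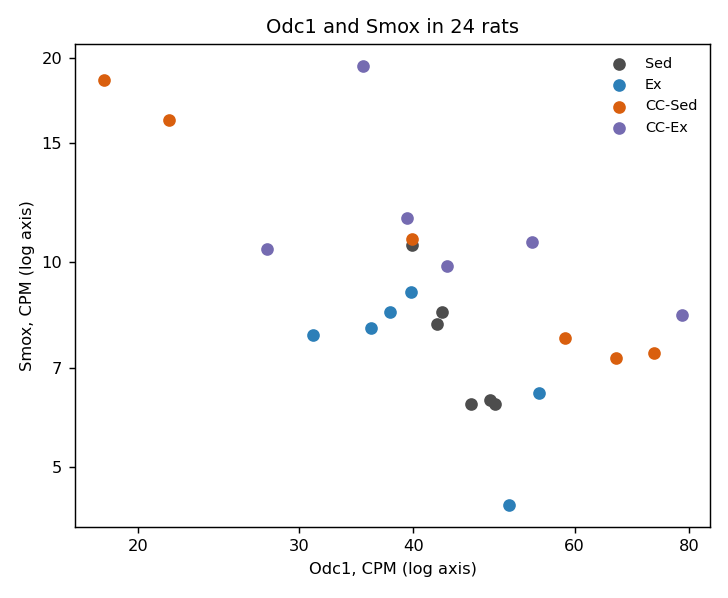
Smox against Odc1 in CPM on log axes, with 1 point per rat. Low Odc1 goes with high Smox in CC-Sed (18.4 and 18.6 CPM in rat 3), and the saline rats slope the same way over a narrower range.

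Of the 28 pairs among the 8 genes, 8 had a within-group correlation over 0.5 in size. Sms and Oaz1 varied together (0.68, and 0.58 without CC-Ex rat 5 and CC-Sed rat 2). The positive values of Sat1 with Azin1 (0.67) and with Srm (0.61) fell to 0.45 and 0.20 without CC-Ex rat 5 and CC-Sed rat 6, and that of Srm with Azin1 went from 0.71 to 0.46. These relations among Sat1, Srm and Azin1 thus leaned on both animals. Sms and Azin1 were at -0.54, which became -0.07 without CC-Ex rat 5 and CC-Sed rat 2. That pair was at 0.40 among the 12 saline rats and -0.78 among the 12 CC rats. Smox with Oaz1 (0.51) and Srm with Sms (-0.52) were not recomputed with rats left out. Amd1 had no within-group correlation over 0.5 with any of the other 7 genes.

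Training changed none of the 8 genes by the test. In Sed vs. Ex and in CC-Sed vs. CC-Ex, 0 of the 8 passed by edgeR, by DESeq2 or by limma-voom, beside 0% of all genes by edgeR. At an unadjusted p under 0.05, 0 of the 8 passed in either, beside 1.09% of all genes in Sed vs. Ex and 2.16% in CC-Sed vs. CC-Ex. All 8 values in Sed vs. Ex were negative, from -0.19 (Amd1) to -0.02 (Srm). In CC-Sed vs. CC-Ex they ran from -0.31 (Sat1, 95% CI -1.30 to 0.68) to 0.17 (Amd1, -0.16 to 0.51). The difference of the CC effect between trained and sedentary rats was tested directly as an interaction, and 0 of the 8 passed, beside 0% of the table, with 0 at an unadjusted p under 0.05, beside 1.42%. For Amd1 this difference was 0.36 (95% CI -0.11 to 0.83, adjusted p = 0.9996), for Sat1 -0.26 (-1.67 to 1.14) and for Smox 0.11 (-0.61 to 0.83). Amd1 passed in sedentary rats and not in trained ones, but its effects were not shown to differ.

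The wider pathway was read from 6 lists with 23 genes present, and 8 of these passed in the pooled comparison, beside 27.8% of all genes, so the count was near that of the table. In Sed vs. CC-Sed 1 of the 23 passed (Mtap), beside 6.46% of all genes, and in Ex vs. CC-Ex none did, beside 0.995%. Among the other polyamine enzymes and antizyme genes, 1 of 4 passed: Paox, the peroxisomal oxidase of acetylated polyamines, rose by 0.33 (SE 0.103, adjusted p = 0.0231), and all 12 CC rats lay above the saline median. Azin2, another antizyme inhibitor, did not pass (0.18, adjusted p = 0.267). In sedentary rats it did not overlap between the groups, at 0.878 to 1.15 CPM in Sed and 1.16 to 1.55 in CC-Sed, as for 2.32% of all genes, but its Log2FC of 0.39 had an adjusted p of 0.152. For ornithine supply, 1 of 2 passed, and Arg1, Arg2, Agmat and Slc7a1 were not analysed here. Oat, the mitochondrial aminotransferase that links ornithine to glutamate and proline, rose by 0.53 (SE 0.112, adjusted p = 0.00281). Its CPM was 108 to 134 in Sed and 115 to 205 in CC-Sed, 89.8 to 132 in Ex and 130 to 245 in CC-Ex, and 9 of the 12 CC rats lay above every saline rat.

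**Figure D5:**
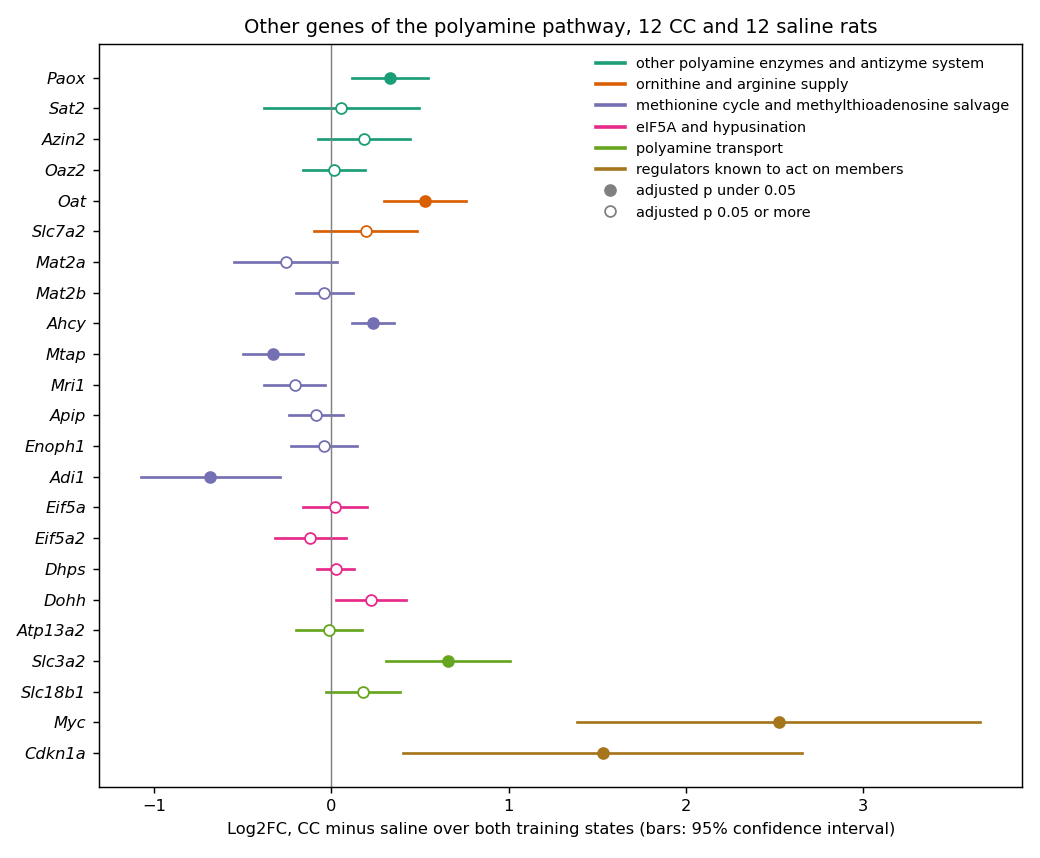
Pooled Log2FC, CC minus saline, of the 23 other pathway genes with 95% confidence intervals, coloured by list. Filled points have an adjusted p under 0.05: Paox, Oat, Ahcy, Slc3a2, Myc and Cdkn1a to the right of 0, Mtap and Adi1 to the left.

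The methionine cycle feeds Amd1 with its substrate and takes up the methylthioadenosine that Srm and Sms release. Of its 8 genes present, 2 were lower, beside 10.6% of all genes, 1 was higher, beside 17.2%, and 5 did not pass. Mtap, which cleaves methylthioadenosine, had CPM of 7.50 to 10.7 in Sed and 5.55 to 7.54 in CC-Sed, 8.23 to 9.33 in Ex and 5.23 to 9.26 in CC-Ex. It fell by 0.53 (SE 0.116, adjusted p = 0.0140) in Sed vs. CC-Sed and by 0.33 (SE 0.0815, adjusted p = 0.00682) in the pooled comparison. Adi1, a later enzyme of the same salvage route, was at 15.0 to 21.4 CPM in Sed and 5.26 to 15.2 in CC-Sed, 15.0 to 20.0 in Ex and 4.13 to 20.2 in CC-Ex. It fell by 0.68 (SE 0.190, adjusted p = 0.0126), and 10 of the 12 CC rats lay below every saline rat. Ahcy, which removes the by-product of methylation reactions, rose by 0.23 (SE 0.0581, adjusted p = 0.00698). Mri1, Mat2a, Apip, Mat2b and Enoph1 did not pass, at -0.26 to -0.04.

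None of the 4 genes of eIF5A, the factor that carries a spermidine-derived residue, passed in edgeR (1 had an unadjusted p under 0.05, Dohh at 0.22). Of 3 transport genes, Slc3a2, a shared chain of amino acid carriers also linked to polyamine export, rose by 0.66 (SE 0.169, adjusted p = 0.00812), and Slc18b1 and Atp13a2 did not pass. Both known regulators examined, Myc and Cdkn1a, were DEGs, beside 2.88% of all genes. Myc, a factor known to drive Odc1 and Srm, had CPM of 2.27, 3.12 and 9.12 (lowest, median and highest) in Sed, 2.68, 3.11 and 4.00 in Ex, 2.09, 20.0 and 38.9 in CC-Sed, and 2.19, 9.64 and 111 in CC-Ex. Its pooled Log2FC was 2.52 (SE 0.550, adjusted p = 0.00334), and 7 of the 12 CC rats lay above every saline rat while 2 lay below them all. Cdkn1a, a cell cycle inhibitor, had a pooled Log2FC of 1.53 (SE 0.544, adjusted p = 0.0400), which passed in 10 of the 24 fits that left out a rat.

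The share of the 10 highest genes moved with these results too. With it as a covariate the pooled values were 0.28 for Paox (adjusted p = 0.141), 0.14 for Ahcy (0.105), -0.26 for Mtap (0.0686), -0.41 for Adi1 (0.0846), 0.29 for Slc3a2 (0.212), 0.89 for Myc (0.213) and 0.62 for Cdkn1a (0.435), and none of these passed. Over all genes, the share as a covariate took the pooled calls from 3017 to 746, so such losses were common in the table. Oat was the exception among the 8 genes and kept its pooled call under every alternative run. Without the 3 libraries of low share, Cdkn1a was at 0.77 (adjusted p = 0.309), Myc at 1.32 (0.0254) and Slc3a2 at 0.31 (0.0177). Without CC-Ex rat 5 alone, Myc was at 1.64 and Cdkn1a at 0.93 (adjusted p = 0.147).

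The genes most like each polyamine gene over the 24 rats were taken by Pearson correlation of log2 CPM. Sat1 followed Psmd8 (0.96), Med15 (0.96) and Armcx5 (0.96), and within groups Psmd8 (0.95), Ctsl (0.94) and Tgif1 (0.94). Amd1 followed Ube2a (0.91), Szrd1 (0.90) and Cnep1r1 (0.86). For Smox they were Narf (0.86), Ggta1 (0.85) and Fbxl4 (0.84), and within groups the muscle phosphorylase gene Pygm (0.85) and the fast fibre gene Actn3 (0.85) were among its nearest 3. Odc1 had weaker neighbours, led by the glycolytic gene Pgam1 (0.76 over the 24 rats and 0.83 within groups). Azin1 was nearest to Mapre1 (0.84), Srm to Zfp598 (0.88), Sms to Rrm1 (0.83) and Oaz1 to Yeats4 (0.88).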

How the data were processed

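RNA from the medial gastrocnemius of 24 rats, 6 in each of the Sed, Ex, CC-Sed and CC-Ex groups, was sequenced as 1 library per animal. Estimated counts per gene were deposited by the authors, who trimmed the reads with Trim Galore, quantified transcripts with Salmon and summed them to genes with tximport. The submitters' processing notes name the rat build mRatBN7.2 and DESeq2 1.44.0. The deposited table held whole numbers and 10851 genes, and its lowest count was 10, so lowly expressed genes had been removed. Salmon can share reads between a gene and its near-identical copies, and this was not tested for these genes. No column was left unused or held comparisons of the authors.

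The whole table was fitted in R 4.3.3 with edgeR 4.0.16 (TMM normalization, filterByExpr, which removed no gene, and quasi-likelihood F tests in a model of 4 groups). Comparisons were the CC effect in sedentary rats and in exercised rats, their mean (pooled, 12 against 12 rats), their difference (interaction), and the training effect with and without CC. P-values were adjusted by Benjamini-Hochberg over all 10851 genes. Every adjusted p in the text is from edgeR's quasi-likelihood test unless another tool is named. Log2FC is on the log2 scale, with the standard error taken as Log2FC divided by the square root of F. Log2 CPM used a prior count of 2, and within-group correlations used deviations from the group means. Marker scores and correlations with marker lists used the mean log2 CPM of the listed genes, and summed CPM served only for the ranges by group. The script was tested on simulated data. Library totals were between 37816239 and 50350554, and no libraries of a group agreed within sampling noise (the lowest chi-square per degree of freedom was 43.8).

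All 8 polyamine genes, every gene present of 6 pathway lists, and the 3 genes nearest to each polyamine gene could be named. 1 gene of these lists is not reported here. The genes and lists were chosen with earlier results of these data known. Alternatives were DESeq2 1.42.0, limma-voom with sample weights (limma 3.58.1), upper-quartile scaling, no filter, at least 50 counts in every rat, only the groups compared, a replicate block, the library number or a slow fibre score as a covariate, and leaving out each rat. A fast fibre score, the share of the 10 highest genes and the omission of 3 libraries were added after seeing the data. Promoter windows were RefSeq sequences of GRCr8.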

Additional observations from a re-analysis of the deposited data

Results flagged for a closer look

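Among the 32 sets of 6 rats (8 genes in 4 groups), 5 held a rat whose gap to its nearest neighbour took a larger part of the group's range of log2 CPM than Dixon's 95% critical value for 6 samples, and chance would mark about 5% of such sets. Srm accounted for 3 of these, with Sed rat 1 high at 22.0 CPM (a gap of 0.724 of the range), CC-Sed rat 6 high at 29.8 CPM (0.686) and CC-Ex rat 5 high at 32.9 CPM (0.672). Azin1 was high in CC-Ex rat 5 at 96.6 CPM (0.661), and Sms was low in Ex rat 5 at 17.9 CPM (0.64). Of these 5 values, 3 lay in CC-Sed rat 6 and CC-Ex rat 5, which also had low shares of counts in their 10 highest genes (26% and 26.3%).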

How the results depend on the processing

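Under the alternatives other than leaving out rats, 124 recomputed counts of called genes stayed within 1.5 times the reported count and 16 did not. The 124 hold every count of the training and interaction comparisons, where 0 of all genes passed in each alternative. The setting without a filter repeated the main fit, since the filter removed no gene, so its counts and values could not move. The 124 are thus no measure of how stable the calls were. Of the recomputed Log2FC values, 533 kept their direction and side of the threshold, 40 came to pass it, 28 no longer passed it and 18 turned sign. In Sed vs. CC-Sed the DEG count of 0 became 1 (Sat1) with DESeq2, limma-voom, the library number or the slow fibre score, and 0 to 1 with a rat left out. Over all genes, the 203 DEGs were 318 with DESeq2, 383 with limma-voom, 285 with the library number and 324 with the slow fibre score. The adjusted-p count of 1 became 2 with DESeq2, the library number or the slow fibre score, 3 with limma-voom, 0 with the top-10 share, and 0 to 2 with a rat left out. In Ex vs. CC-Ex the adjusted-p count of 0 became 2 with limma-voom, beside 1043 of all 10851 genes. It became 1 (Smox) with the fast fibre score, beside 74 of all genes. In the pooled comparison the DEG count of 1 became 0 with limma-voom, the fast fibre score, the top-10 share or 3 libraries left out. With a rat left out it was 0 to 1 (0 without CC-Ex rat 5). The adjusted-p count of 3 ran from 2 to 5 over the alternatives and from 3 to 4 with a rat left out. The 5 came with the slow fibre score, beside 3885 of all 10851 genes. Which genes passed also changed: without the 3 libraries Sat1 no longer did and Azin1 did. Counts in the training and interaction comparisons stayed at 0 in every alternative, as did those of all genes. The cause of these changes was not tested.

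Signs turned where values were near 0. The Odc1 Log2FC, 0.05 in Sed vs. CC-Sed, was -0.042 with upper-quartile scaling, -0.32 with limma-voom, -0.093 and -0.44 with the slow and fast fibre scores, -0.14 with the top-10 share, -0.23 without 3 libraries and -0.13 to 0.21 with a rat left out. Odc1 in Ex vs. CC-Ex was -0.020 with the fast fibre score, -0.046 with the top-10 share and -0.062 to 0.27 with a rat left out. Pooled, Odc1 was -0.11 with limma-voom, -0.23 with the fast fibre score, -0.096 with the top-10 share, -0.062 without 3 libraries and -0.0067 to 0.18 with a rat left out. In Ex vs. CC-Ex, Sms was -0.023 with upper-quartile scaling, -0.0054 with the library number and -0.0023 to 0.10 with a rat left out, and Oaz1 was -0.027 with upper-quartile scaling and -0.022 to 0.077 with a rat left out. Pooled, Sms was 0.0060 without 3 libraries and Oaz1 0.035 with the fast fibre score. Sat1 in CC-Sed vs. CC-Ex was 0.066 with the fast fibre score and -0.97 to 0.073 with a rat left out.

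Over all genes, the 701 that passed in Sed vs. CC-Sed were 1331 with DESeq2, 2474 with limma-voom and 884 with the library number. They were 1304 with the slow fibre score, 59 with the fast fibre score, 91 with the top-10 share and 331 without 3 libraries. The 3017 that passed in the pooled comparison were 3478 with DESeq2, 3952 with limma-voom and 3885 with the slow fibre score. They were 1041 with the fast fibre score, 746 with the top-10 share and 1660 without 3 libraries. Upper-quartile scaling took the higher genes from 66.6% to 52% of the calls in Sed vs. CC-Sed and from 61.8% to 45.2% in the pooled comparison, and left 23 of the 108 in Ex vs. CC-Ex. The labels give each group the numbers 1 to 6, but same-numbered rats did not deviate together (correlations -0.505 to 0.357 in Sed and CC-Sed and -0.423 to 0.152 in Ex and CC-Ex, with 2 and 0 of 6 nearest to their own number), so the numbers do not pair the rats. With the replicate block the polyamine genes gave 0 DEGs and 1 adjusted call in Sed vs. CC-Sed, 0 of each in Ex vs. CC-Ex and 1 and 3 pooled. Over all genes the block gave 553, 1 and 2772 adjusted calls and 172, 1 and 280 DEGs in the same comparisons.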
